A study of Mus musculus with 18 samples.

Results

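Autophagy receptors and the ATG8 family were followed as 10 genes listed by name. They are the cargo receptors Sqstm1 and Nbr1, the ATG8 genes Map1lc3a, Map1lc3b, Gabarap, Gabarapl1 and Gabarapl2, and Ulk1, Becn1 and Atg12 of the machinery that acts before them. The list uses no threshold on a measured value. It holds 10 of the 17207 genes with reads in any library, and all 10 were among the 7794 genes with at least 1 read in each of the 18 libraries, which were the genes tested. The libraries came from MIN6 cells, a mouse insulinoma line that makes insulin and serves as a model of the pancreatic beta cell. Control cells were given the solvent DMSO for 18 h, CPA1 cells 200 µM cyclopiazonic acid (CPA) for 1 h, and CPA18 cells 200 µM CPA for 18 h. CPA blocks the pump that returns calcium to the endoplasmic reticulum (ER). Each treatment was measured by mRNA-seq, which sequences fragments of poly(A) RNA, and by Ribo-seq, which sequences the fragments that ribosomes protect, in 3 independent experiments. The line carries no engineered allele in the labels, and a group exposed to DMSO for 1 h was not analysed here, so CPA1 was compared with an 18 h control.

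In autophagy a membrane sheet closes around cargo and fuses with the lysosome. The kinase ULK1 and a lipid kinase complex that holds Beclin 1 start the membrane, and ATG12, once joined to ATG5, serves in the ligase that couples ATG8 proteins to a membrane lipid. The coupled ATG8 proteins, of the LC3 and GABARAP subfamilies, bind receptors such as SQSTM1 and NBR1, which bring ubiquitinated cargo. Beta cells are known to rely on autophagy to remove insulin granules, damaged mitochondria and misfolded protein, and several genes of the pathway are known targets of the ER stress response.

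Library totals ran from 520960 to 4755030 reads in mRNA-seq and from 168129 to 1083297 in Ribo-seq, and since amplified reads carry no molecular identifiers, an interval given for a share of reads covers only counting error. All 10 beta cell marker genes had reads, with a summed RPKM (reads scaled by transcript length and library total) from 44148 to 464308 in mRNA-seq, against 24.3 to 136 for 12 markers of other cells, of which Col3a1 and Ptprc had no read. In CPA18, 9 of 10 beta cell markers fell and 8 of 8 ER stress markers rose, in both assays. A read count is a share of its library, and the median of all tested genes was 0.36 higher on the log2 scale in CPA18 than in control mRNA-seq, and 0.39 higher in Ribo-seq. Of the 7794 genes, 2018 were higher and 599 lower in CPA18 mRNA-seq, and 1914 higher and 495 lower in Ribo-seq. With the TMM scaling of edgeR, which sets the bulk of genes to no change, these numbers were 1048 and 1404 in mRNA-seq and 886 and 950 in Ribo-seq. Fold changes below use the library total unless a scaling is named, and the value relative to the median gene is given beside them where it matters. Libraries of experiment 2 from control cells carry descriptions that name the other assay, and where a call named here was lost without them the adjusted p is given.

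The 5 ATG8 genes are set side by side by the end of their coding sequence, since ATG8 proteins are cut after a glycine and coupled to the membrane through it. Shown are the last 30 coding bases with the stop codon, from the RefSeq annotation of GRCm38.p6, all on the plus strand, and the capitals mark the last in-frame glycine codon.
Map1lc3a: tacgcctcccaagaaaccttcGGCttctga
Map1lc3b: gagacattcGGGacagcaatggctgtgtaa
Gabarap: tacagtgatgaaagcgtctatGGTctgtga
Gabarapl1: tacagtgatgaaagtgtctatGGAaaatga
Gabarapl2: tacagcggagagaacacttttGGCttctga
They lie at chr2:155277608-155277637, chr8:121596741-121596770, chr11:69994495-69994524, chr6:129541138-129541167 and chr8:111952376-111952405 in this order. One codon stood between the glycine and the stop in 4 of the genes, and 5 codons in Map1lc3b. Although Gabarap and Gabarapl1 are alike at this end, no stretch of 25 bases was shared between the 5 ATG8 genes. The same held between the 10 genes, apart from pairs among Map1lc3b, Ulk1 and Atg12. For these, only the genes that share the most were recorded, so such a pair could be missed. Such stretches shared with any other gene made up 6.07% of Gabarapl2 and 2.50% of Map1lc3b. They made up at most 0.405% of each of the others. Reads of at least 25 bases that match exactly could thus have been divided with other genes mainly for Gabarapl2 and Map1lc3b. Shorter reads were kept as well. For those and for inexact matches, this search cannot tell whether reads were divided, among the 10 genes or with others.

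Levels are compared between genes in RPKM only. In control mRNA-seq, Gabarap had the highest mean of the 10 at 442 ± 197 (SD, n = 3), then Sqstm1 at 336 ± 130 and Gabarapl2 at 258 ± 75.7, and the ranges of neighbours in this order overlapped. A gap with no overlap set these apart from Map1lc3b (77.8 ± 22.7), Gabarapl1 (75.1 ± 26.7), Becn1 (64.3 ± 16.8) and Map1lc3a (57.4 ± 29.9), which overlapped among themselves. Nbr1 (7.42 ± 2.92), Atg12 (5.56 ± 2.82) and Ulk1 (4.71 ± 0.701) came last, below all of these and not separated from each other. In CPA18 mRNA-seq, Sqstm1 led at 1541 ± 743, with no overlap with Gabarap (492 ± 240). In control Ribo-seq the same 3 genes came first and the same 3 last, in the same order, and there Sqstm1 (303 ± 15.5) did not overlap Gabarapl2 (206 ± 26.5). Ribosomes protect mainly coding sequence, which makes up from 17.1% (Atg12) to 65.5% (Sqstm1) of the longest transcript of these genes. RPKM over the full transcript thus lowers the Ribo-seq level of genes with long untranslated ends.

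**Figure D1:**
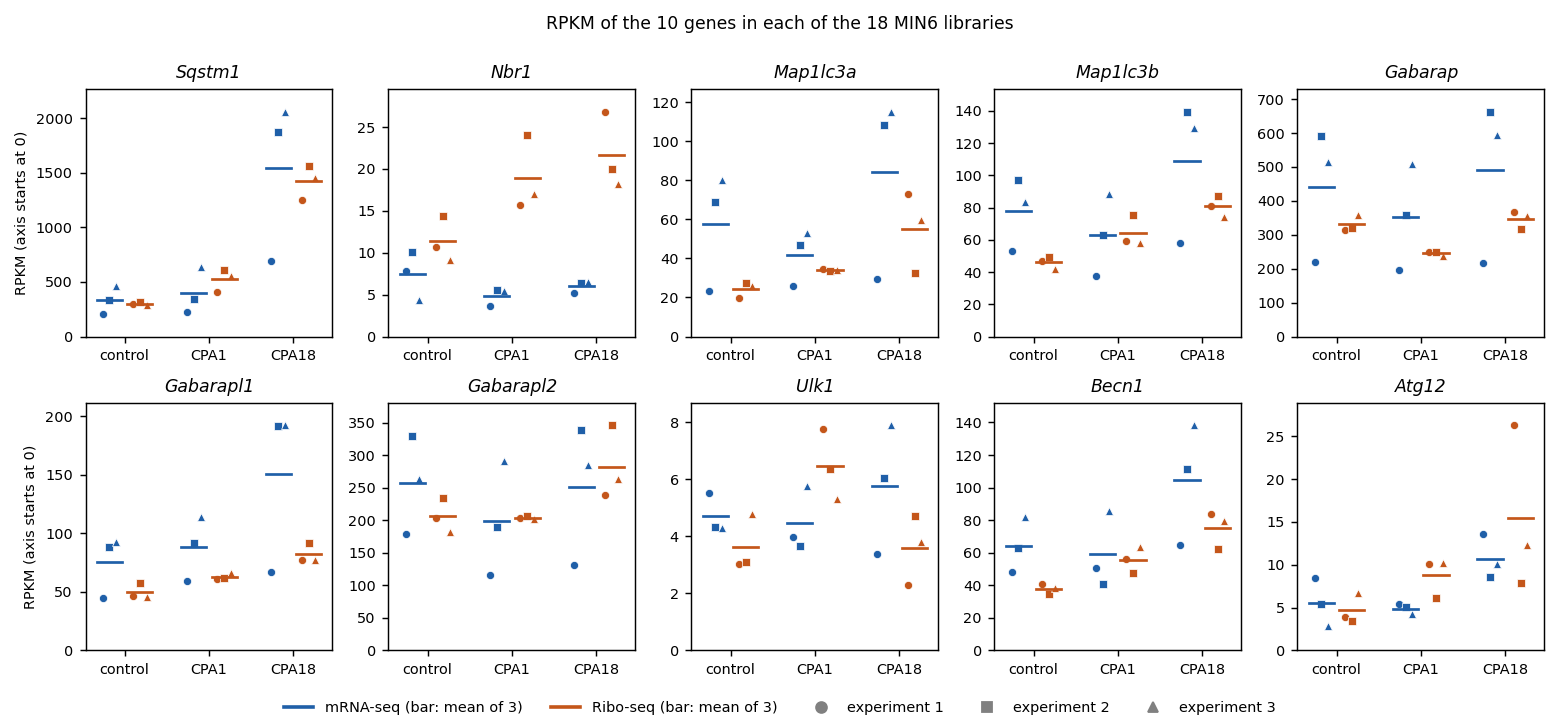
RPKM (vertical axis, from 0, one scale per gene) of the 10 genes by treatment in mRNA-seq (blue) and Ribo-seq (orange). Each symbol is 1 library, its shape gives the experiment and bars are means of 3. All 3 CPA18 libraries of Sqstm1 lie above all control libraries in both assays, whereas most mRNA-seq values of the ATG8 genes overlap between treatments, with experiment 1 lowest.

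Sqstm1, which encodes the receptor SQSTM1 (also called p62) that binds ubiquitin and ATG8 proteins, rose the most of the 10 genes. In GRCm38.p6 it lies on chromosome 11 from 50200152 to 50210820. In mRNA-seq its RPKM was 208, 333 and 467 in control experiments 1, 2 and 3. After 1 h of CPA it was 226, 339.8 and 638, and after 18 h it was 689.8, 1871 and 2062. Each CPA18 value was above every control and CPA1 value, whereas CPA1 overlapped control. The mRNA rose from control to CPA18 by a log2 value of 2.14 ± 0.27 (SE), or 4.41-fold with a 95% confidence interval of 3.06 to 6.34 (edgeR quasi-likelihood test, Benjamini-Hochberg adjusted p = 9.08e-11). In the 3 experiments the log2 change was 1.73, 2.49 and 2.14. Relative to the median gene it was 1.78, and with TMM 1.74 (adjusted p = 1.27e-06). Without the experiment as a block the adjusted p was 0.0749. From control to CPA1 the log2 change in mRNA-seq was 0.21 ± 0.26 (adjusted p = 0.990). In cultures sequenced in bulk, more cells that express a gene and more RNA per cell cannot be told apart.

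Ribosome footprints on Sqstm1 increased already after 1 h. Their RPKM was 297, 320.2 and 291 in control, 411, 614 and 556 in CPA1, and 1251, 1567 and 1450 in CPA18, so the ranges of the 3 treatments did not overlap. Footprints rose by a log2 value of 0.78 ± 0.16 in CPA1, or 1.72-fold with an interval of 1.39 to 2.13 (edgeR, adjusted p = 4.72e-05, and 0.00832 without the block). In CPA18 they rose by 2.22 ± 0.16, or 4.67-fold with an interval of 3.75 to 5.81 (edgeR, adjusted p = 1.23e-35). Between CPA1 and CPA18 the mRNA rose by 1.93 ± 0.26 (edgeR, adjusted p = 2.26e-09, and 0.0982 without the block) and the footprints by 1.44 ± 0.16 (adjusted p = 6.97e-17). All 3 Ribo-seq changes of Sqstm1 passed the test under each of the 12 alternatives. In experiment 1, Sqstm1 took 0.0411% of the mRNA reads in control (Wilson 95% interval from 0.0359 to 0.0470%) and 0.136% in CPA18 (0.130 to 0.143%). In experiment 2 its share was 0.0657% (0.0619 to 0.0698%) and then 0.369% (0.364 to 0.375%). In experiment 3 it was 0.0923% (0.0885 to 0.0962%) and then 0.407% (0.398 to 0.416%). The intervals of control and CPA18 did not overlap in any experiment. They cover counting error only, and those of the 3 control libraries did not overlap each other either. Among the 7794 genes it ranked between 163 and 230 by RPKM in control mRNA-seq and between 34 and 47 in CPA18, and between 267 and 308 and then 61 and 72 in Ribo-seq. Both of its RefSeq transcripts were counted, and the shorter had from 43.3 to 49.5% of the reads of the gene, but reads that match both cannot be assigned to one.

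Promoter windows of 250 bases before the transcript start were read from RefSeq (GRCm38.p6) for 7 of the genes. Map1lc3a and Becn1 had no entry. Atg12 was left out by its chromosome, 18, and not for its sequence, and no match to the motifs below was recorded for it. The counts below thus leave out Atg12, a gene called in CPA18 mRNA-seq. The windows of Sqstm1, which rose the most, and Gabarapl1, the ATG8 gene called in both assays in CPA18, are shown 5′ to 3′, with matches to CCACG and GGGCGG on either strand in capitals.
Sqstm1, chr11:50210821-50211070, minus strand: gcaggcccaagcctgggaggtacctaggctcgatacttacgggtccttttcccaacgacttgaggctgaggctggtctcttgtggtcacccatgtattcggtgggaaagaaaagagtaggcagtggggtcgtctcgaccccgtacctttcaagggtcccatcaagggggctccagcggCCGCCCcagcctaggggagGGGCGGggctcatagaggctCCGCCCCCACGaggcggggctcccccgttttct
Gabarapl1, chr6:129532942-129533191, plus strand: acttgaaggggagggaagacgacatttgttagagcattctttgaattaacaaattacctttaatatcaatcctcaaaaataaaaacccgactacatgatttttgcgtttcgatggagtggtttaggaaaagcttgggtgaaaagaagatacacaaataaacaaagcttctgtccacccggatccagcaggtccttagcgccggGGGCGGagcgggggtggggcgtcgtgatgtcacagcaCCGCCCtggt
The GC box core GGGCGG stood 3 times in the Sqstm1 window, 72, 53 and 33 bases before the start, and 2 times in that of Gabarapl1, 47 and 10 bases before it. It was found in 5 of the 7 genes and in 32.7% of the 32851 promoter windows of the mouse. CCACG, the end of the ER stress response element, stood 27 bases before the start of Sqstm1 and also in the windows of Map1lc3b and Ulk1, against 28.3% of all windows. Searched on both strands, the full element, CCAAT and then CCACG after 9 bases (0.113% of all windows), the core of the CLEAR element CACGTG (6.02%), which can overlap CCACG, the antioxidant response core TGACNNNGC (10.2%), the C/EBP-ATF core TGATGNAA (3.45%) and TGACGTCA (1.55%) had no match in the windows of the 7 genes. That says only that these letters do not stand in these 250 bases.

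Nbr1, whose protein is a receptor with a domain layout like that of SQSTM1, had no called change in mRNA-seq. The gene spans chromosome 11 from 101552107 to 101581951. Its RPKM was 7.81, 10.1 and 4.33 in control, 3.67, 5.51 and 5.40 in CPA1, and 5.19, 6.38 and 6.55 in CPA18. The treatments overlapped, and the log2 change from control was -0.54 ± 0.33 in CPA1 (edgeR, adjusted p = 0.964) and -0.23 ± 0.33 in CPA18 (adjusted p = 0.616). In Ribo-seq the RPKM was 10.7, 14.4 and 9.10 in control, 15.7, 24.0 and 16.96 in CPA1, and 26.8, 20.01 and 18.2 in CPA18, and each library of either CPA treatment was above every control library. The CPA18 footprints rose by 0.92 ± 0.28 (edgeR, adjusted p = 0.00605). The adjusted p was 0.0929 without experiment 1, 0.0580 without experiment 3, 0.218 with DESeq2 and 0.127 with TMM, where the log2 change was 0.55. The CPA1 change of 0.72 ± 0.26 had an adjusted p of 0.0774. Nbr1 had from 19 to 143 reads a library, which limits how small a change can be seen.

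The ratio of Sqstm1 to Nbr1 RPKM needs no library total, and it was chosen after the values were seen. In mRNA-seq it was 26.7, 32.8 and 108 in control, 61.5, 61.7 and 118 in CPA1, and 133, 293 and 315 in CPA18. Ribo-seq gave 27.8, 22.2 and 31.9 in control, 26.1, 25.6 and 32.8 in CPA1, and 46.6, 78.3 and 79.8 in CPA18. In both assays each CPA18 ratio was above every control ratio, and in Ribo-seq the CPA1 ratios overlapped those of control.

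Map1lc3a, which encodes LC3A, differed widely between experiments. In mRNA-seq its RPKM was 23.5, 68.6 and 80.1 in control, 25.8, 46.6 and 53.2 in CPA1, and 29.5, 108 and 115 in CPA18, so experiment 1 was lowest in each treatment. From CPA1 to CPA18 the mRNA rose by a log2 value of 0.89 ± 0.29 (edgeR, adjusted p = 0.0120). That call was lost without experiment 2 (adjusted p = 0.0975), without experiment 3 (0.196), without the block (0.297) and with TMM (0.223). From control to CPA18 the change was 0.52 ± 0.29 (adjusted p = 0.167). Footprints of Map1lc3a were at 19.5, 27.3 and 26.1 RPKM in control, 34.4, 33.5 and 33.98 in CPA1, and 72.8, 32.4 and 59.5 in CPA18. Control was below both CPA treatments in every library. Footprints rose by 1.15 ± 0.35 in CPA18 (edgeR, adjusted p = 0.00612). The adjusted p was 0.116 without experiment 1, 0.0979 without experiment 3, 0.0753 with TMM and 0.187 with DESeq2. The lowest CPA18 value, in experiment 2, came from 7 reads.

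Map1lc3b encodes LC3B, the ATG8 protein most used as a marker of autophagosomes. Its mRNA-seq RPKM was 52.8, 97.0 and 83.6 in control, 37.7, 62.9 and 88.1 in CPA1, and 58.2, 139 and 129 in CPA18. The treatments overlapped, and the mRNA rose only from CPA1 to CPA18, by a log2 value of 0.77 ± 0.25 (edgeR, adjusted p = 0.00883). That adjusted p was 0.0610 without experiment 2, 0.0722 without experiment 3, 0.359 without the block and 0.168 with TMM. In Ribo-seq the RPKM was 46.6, 49.6 and 42.1 in control, 59.1, 75.5 and 57.9 in CPA1, and 81.2, 86.9 and 74.2 in CPA18. Both CPA treatments were above control in every library. Footprints rose in CPA18 by 0.80 ± 0.22, or 1.74-fold with an interval of 1.296 to 2.35 (edgeR, adjusted p = 0.00186). This call held without any 1 experiment. It was lost with TMM (log2 change of 0.44, adjusted p = 0.116) and with DESeq2 (0.45, adjusted p = 0.192).

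Gabarap, which encodes the protein that names its subfamily, had its lowest Ribo-seq values in CPA1. In Ribo-seq its RPKM was 314, 321 and 359.5 in control and 251, 249.7 and 237 in CPA1, so all CPA1 values were below control, and 366, 316 and 354 in CPA18, within or near the range of control. From control to CPA1 the log2 change was -0.43 ± 0.18 (edgeR, unadjusted p = 0.0143, adjusted p = 0.136), with values of -0.32, -0.36 and -0.60 in the 3 experiments. Footprints rose from CPA1 to CPA18 by 0.49 ± 0.19 (edgeR, adjusted p = 0.0462). This call was lost without the control libraries of experiment 2 (adjusted p = 0.0628), without any 1 experiment (up to 0.202), without the block (0.0918) and with TMM (0.599). In mRNA-seq the RPKM was 219, 592 and 516 in control, 195, 357 and 507 in CPA1, and 217, 663 and 595 in CPA18. These ranges overlapped, and the CPA18 change of 0.13 ± 0.24 had an adjusted p of 0.720.

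Gabarapl1 was the 1 ATG8 gene called in mRNA-seq from control to CPA18. Its mRNA-seq RPKM was 44.4, 88.5 and 92.5 in control, 59.2, 91.7 and 114 in CPA1, and 66.8, 192 and 192 in CPA18. Within each experiment the order was control, CPA1 and CPA18, although the ranges over all experiments overlapped. The mRNA rose by a log2 value of 0.95 ± 0.25 in CPA18, or 1.93-fold with an interval of 1.36 to 2.73 (edgeR, adjusted p = 0.00212), and by 0.52 with TMM (adjusted p = 0.0139). The adjusted p was 0.119 without experiment 3 and 0.297 without the block. From CPA1 to CPA18 it rose by 0.68 ± 0.25 (edgeR, adjusted p = 0.0226), which was lost without experiment 2 (0.135), without experiment 3 (0.219), without the block (0.380) and with TMM (0.438). Footprints were at 46.7, 57.6 and 45.8 RPKM in control, 60.9, 61.8 and 65.9 in CPA1, and 77.2, 91.6 and 77.4 in CPA18, so that the 3 treatments did not overlap. They rose in CPA18 by 0.71 ± 0.24 (edgeR, adjusted p = 0.0151), with adjusted p values from 0.0686 to 0.0774 without any 1 experiment and 0.291 with TMM, where the log2 change was 0.35. With DESeq2 the adjusted p was 0.395.

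Gabarapl2 encodes the ATG8 protein also known as GATE-16. Its mRNA level in RPKM was 179, 330.3 and 263 in control, 116, 189.8 and 292 in CPA1, and 131, 339.7 and 285 in CPA18, with overlap throughout. The CPA18 change was -0.08 ± 0.25 (edgeR, adjusted p = 0.823). Set against the median gene it was -0.45, and with TMM it was -0.48 with an adjusted p of 0.0206, the only call that an alternative added for these genes. In Ribo-seq its RPKM was 203, 234 and 182 in control, 203, 207 and 203 in CPA1, and 239, 346 and 263 in CPA18. Each CPA18 value was above every control value, and the change of 0.46 ± 0.20 had an adjusted p of 0.0613.

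The makeup of the ATG8 pool was compared as the share of each gene in the summed RPKM of the 5 genes, which does not depend on the library total and was chosen after the values were seen. The summed RPKM was 519 to 1176 in control mRNA-seq and 503 to 1443 in CPA18, and 629 to 690.1 in control Ribo-seq and 828 to 873 in CPA18. Gabarapl1 made up 8.56, 7.52 and 8.94% of the mRNA-seq sum in control, a mean of 8.34%, and 13.3, 13.3 and 14.6% in CPA18, a mean of 13.7%. Its mean share in CPA1 was 12.2%, and both CPA treatments lay above every control library (two-sided exact permutation test, p = 0.1 for each, the smallest that 3 against 3 allow, adjusted p = 0.222 over 20 comparisons). In Ribo-seq the mean share of Gabarapl1 went from 7.59% to 10.3% with CPA1 and 9.69% with CPA18, all CPA values lying above control. Map1lc3b went from 7.003% in control to 10.5% and 9.54%. Gabarap took the largest mean share in both assays, and its mean went from 50.4% in control Ribo-seq to 40.2% in CPA1 and 40.9% in CPA18 (exact permutation test, p = 0.1 for each), with all CPA values below control. None of the 20 comparisons could pass 0.05 in this design.

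**Figure D2:**
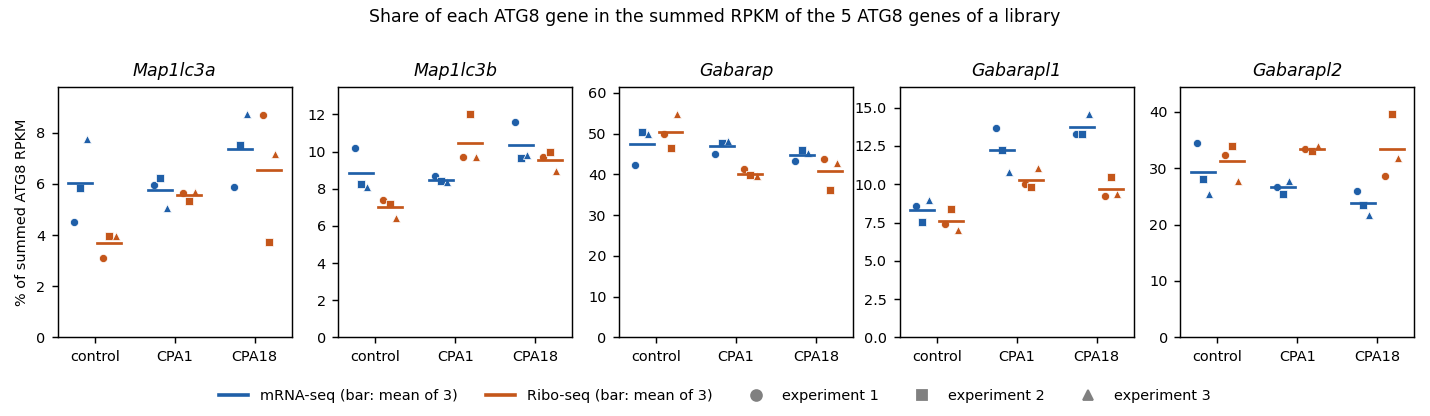
Share (%, vertical axis from 0, one scale per gene) of each ATG8 gene in the summed RPKM of the 5 ATG8 genes of a library, by treatment, in mRNA-seq (blue) and Ribo-seq (orange), with 1 symbol per library and bars for the mean of 3. Gabarapl1 lies higher in all CPA libraries than in control in both assays, and Gabarap lies lower in all CPA libraries in Ribo-seq only.

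Ulk1 encodes the kinase that starts the membrane, and it had few reads. It lies on chromosome 5 from 110784489 to 110810120. In mRNA-seq its RPKM was 5.52, 4.31 and 4.30 in control, 3.98, 3.68 and 5.77 in CPA1, and 3.40, 6.05 and 7.89 in CPA18, with overlap and no call (CPA18 change of 0.36 ± 0.33, edgeR adjusted p = 0.429). In Ribo-seq it was 3.04, 3.09 and 4.78 in control, 7.76, 6.35 and 5.30 in CPA1, and 2.28, 4.72 and 3.81 in CPA18. The CPA1 values were thus above those of both other treatments in every library. The log2 change was 0.82 ± 0.38 from control to CPA1 (edgeR, unadjusted p = 0.0289, adjusted p = 0.203) and -0.83 ± 0.47 from CPA1 to CPA18 (adjusted p = 0.208). The CPA18 Ribo-seq values came from 2, 5 and 11 reads, and those of CPA1 from 21, 13 and 13.

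Becn1 encodes Beclin 1 of the lipid kinase complex and lies on chromosome 11 from 101288258 to 101302286. The mRNA-seq RPKM was 48.4, 62.7 and 81.9 in control, 50.5, 40.9 and 85.7 in CPA1, and 64.7, 111 and 138 in CPA18. Each CPA18 value was above the control and CPA1 values of its own experiment, although the groups overlapped. The mRNA rose by a log2 value of 0.68 ± 0.26 from control to CPA18 (edgeR, adjusted p = 0.0314) and by 0.82 ± 0.26 from CPA1 to CPA18 (adjusted p = 0.00770). The CPA18 call against control passed in 2 of 12 alternatives, and was lost without the control libraries of experiment 2 (adjusted p = 0.105), without experiment 1 (0.0503), 2 (0.0626) or 3 (0.314), without the block (0.427) and with TMM (0.201). The call against CPA1 was lost without experiment 2 (0.104), without experiment 3 (0.0829), without the block (0.321) and with TMM (0.146). In Ribo-seq the RPKM was 40.7, 34.9 and 38.2 in control, 56.3, 47.4 and 63.5 in CPA1, and 83.7, 62.5 and 79.6 in CPA18, and both CPA treatments were above control in every library. Footprints rose in CPA18 by 0.86 ± 0.25 (edgeR, adjusted p = 0.00449), with an adjusted p of 0.0604 without experiment 3, 0.127 with TMM and 0.221 with DESeq2.

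Atg12 encodes the ubiquitin-like protein of the ATG8 ligase. Its mRNA-seq RPKM was 8.47, 5.37 and 2.83 in control, 5.38, 5.04 and 4.24 in CPA1, and 13.6, 8.52 and 10.0 in CPA18, so each CPA18 value was above every value of the other treatments. The mRNA rose by a log2 value of 1.07 ± 0.37 from control to CPA18 (edgeR, adjusted p = 0.0180) and by 1.11 ± 0.36 from CPA1 to CPA18 (adjusted p = 0.00963). The call against control was lost without the control libraries of experiment 2 (adjusted p = 0.0536), without experiment 3 (0.378), without the block (0.240) and with TMM (0.130), and that against CPA1 without experiment 3 (0.0996), without the block (0.184) and with TMM (0.167). In Ribo-seq it was 3.91, 3.45 and 6.67 in control, 10.1, 6.13 and 10.2 in CPA1, and 26.3, 7.90 and 12.3 in CPA18. CPA18 was above control in every library. Footprints rose in CPA18 by 1.52 ± 0.45, with an interval of 0.64 to 2.40 (edgeR, adjusted p = 0.00433), and by 1.16 with TMM (adjusted p = 0.0386). This call was lost with DESeq2 (log2 change of 1.24, adjusted p = 0.103) and without experiment 1 (0.97, adjusted p = 0.195). The Ribo-seq values rest on 4 to 18 reads a library.

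**Figure D3:**
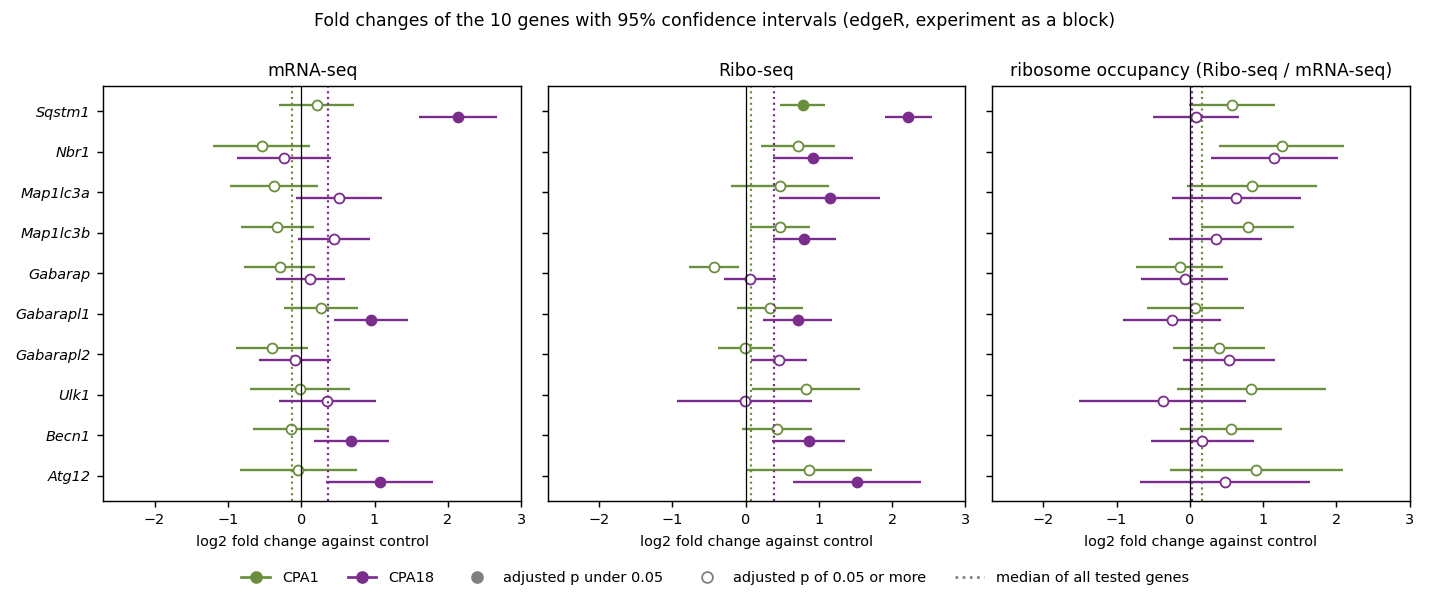
Log2 fold change against control (horizontal axis) of the 10 genes in mRNA-seq, Ribo-seq and ribosome occupancy, for CPA1 (green) and CPA18 (purple), with 95% confidence intervals from edgeR. Filled circles have an adjusted p under 0.05 and dotted lines mark the median of all tested genes. Sqstm1 alone is filled for CPA1, in Ribo-seq, and 7 genes are filled for CPA18 in Ribo-seq.

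Comparison by comparison, no change of the 10 genes was called in mRNA-seq after 1 h. From control to CPA1, edgeR called 0 of 10 in mRNA-seq, where 0.719% of all tested genes were called. An unadjusted p under 0.05 was found for 6.24% of all genes and for 0 of 10. The last count was 2 with TMM, Sqstm1 (log2 change of 0.33, edgeR adjusted p = 0.558) and Gabarapl1 (0.37, adjusted p = 0.564), and the same 2 were counted with Ins1, Ins2 and Lars2 out of the library total. DESeq2 and limma also called 0. The median change of the 10 was -0.22, against -0.12 over all genes.

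Footprints were called for Sqstm1 alone in CPA1. There, 1 of 10 was called higher (Sqstm1), against 3.72% of all genes, 0 were called lower, against 2.78%, and 6 had an unadjusted p under 0.05, against 18.2% of all genes. The median of the 10 was 0.47 and that of all genes 0.07. The ranges of control and CPA1 did not overlap for 8 genes, of which 7 were higher, against 10.3% of all genes, and Gabarap was lower, against 8.46%. Relative to the median gene, 7 of the 10 were higher in each of the 3 experiments, as were 19.0% of all genes. These 10 were picked with earlier results in view, so the excess over all genes is a description.

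After 18 h of CPA, 4 of 10 were called higher in mRNA-seq against control, namely Sqstm1, Gabarapl1, Atg12 and Becn1, where 25.9% of all genes were called higher, and 0 were called lower, against 7.69%. The median of the 10 was 0.48, close to the 0.36 of all genes. In Ribo-seq, 7 of 10 were called higher, against 24.6% of all genes, and 0 lower, against 6.35%, with a median of 0.83 against 0.39. The 3 not called were Gabarap, Gabarapl2 and Ulk1. Without overlap, 8 were higher in CPA18 Ribo-seq, against 29% of all genes, and 2 (Sqstm1 and Atg12) in mRNA-seq, against 14.8%. With TMM the called genes were 2 in Ribo-seq, Sqstm1 and Atg12, and 3 in mRNA-seq, Sqstm1 and Gabarapl1 higher and Gabarapl2 lower. DESeq2 called Sqstm1 alone in Ribo-seq, and Sqstm1 and Gabarapl1 in mRNA-seq.

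From CPA1 to CPA18, 6 of 10 were called higher in mRNA-seq, against 31.9% of all genes, and 0 lower, against 5.54%. In Ribo-seq, 2 (Sqstm1 and Gabarap) were called higher, against 17%, and 0 lower, against 5.52%. Ranges did not overlap for 2 genes in mRNA-seq (Sqstm1 and Atg12), against 15.6% of all genes, and in Ribo-seq for 4 that were higher (Sqstm1, Gabarap, Gabarapl1 and Gabarapl2), against 23%, and for Ulk1, which was lower, against 7.6%. The medians of the 10 were 0.73 and 0.45, and those of all genes 0.48 and 0.31. This comparison shares its CPA18 libraries with that against control, so the counts are not independent. With TMM, and also with DESeq2, Sqstm1 alone was called in each assay.

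**Figure D4:**
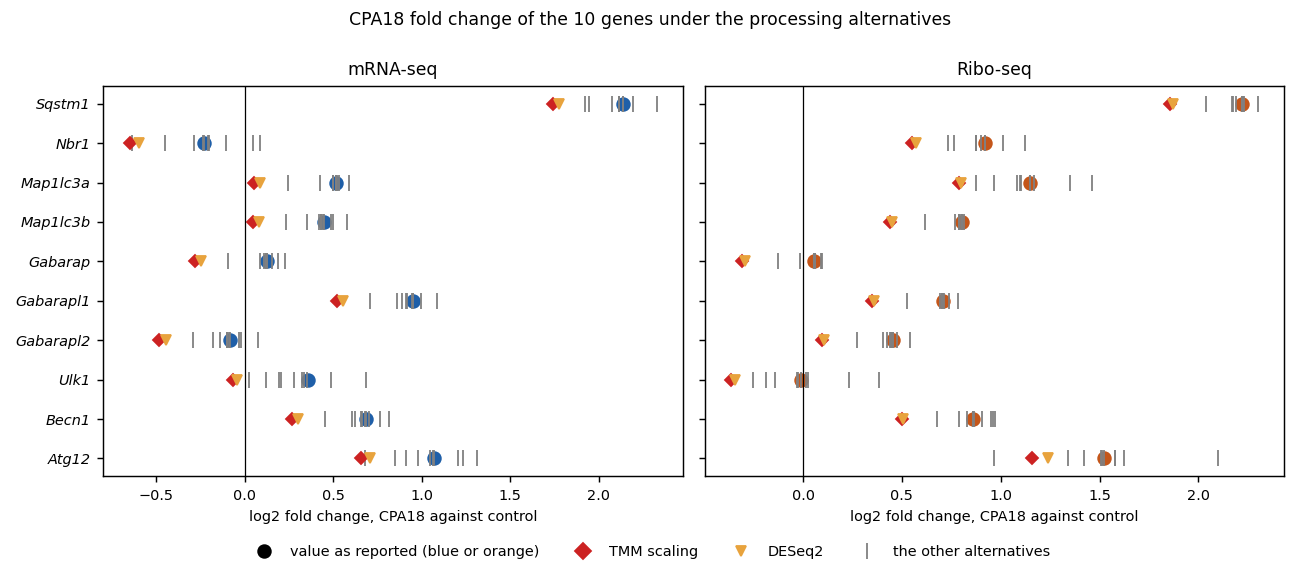
Log2 fold change from control to CPA18 (horizontal axis) of the 10 genes in mRNA-seq (left) and Ribo-seq (right), as reported (large circles) and under the alternatives (TMM in red, DESeq2 in yellow, the others as grey ticks). Sqstm1 stays above 1.7 throughout, while scalings that set the bulk of genes to no change move each gene to lower values.

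Ribosome occupancy, the ratio of Ribo-seq to mRNA-seq RPKM of an experiment, was tested by asking whether the treatment effect differed between the assays (an interaction term). edgeR called 0 of 10 genes in CPA1 against control, 0 in CPA18 against control and 0 in CPA18 against CPA1, where 0.0898%, 0.462% and 0.077% of all genes were called. DESeq2 and limma called 0 as well. At an unadjusted p under 0.05 there were 2, 1 and 1 of the 10, against 7.03%, 9.01% and 5.68% of all genes. The standard errors of these log2 changes ran from 0.29 for Sqstm1 to 0.59 for Atg12.

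Occupancy between genes is not corrected for the share of coding sequence, 61.4% of the longest Nbr1 transcript and 17.1% of that of Atg12. Without that correction, Nbr1 had the highest mean occupancy of the 10 genes in each treatment. Its values were 1.37, 1.42 and 2.10 in control, 4.30, 4.36 and 3.14 in CPA1, and 5.17, 3.14 and 2.77 in CPA18, so control was lowest in each experiment and did not overlap either CPA treatment. The log2 change was 1.25 ± 0.43 in CPA1 (edgeR, unadjusted p = 0.00473, adjusted p = 0.374) and 1.15 ± 0.43 in CPA18 (unadjusted p = 0.00988, adjusted p = 0.352). For Map1lc3b the occupancy was 0.882, 0.511 and 0.504 in control and 1.57, 1.201 and 0.657 in CPA1, a log2 change of 0.79 ± 0.32 (unadjusted p = 0.0152, adjusted p = 0.525). Sqstm1 had 1.43, 0.962 and 0.622 in control, 1.82, 1.81 and 0.872 in CPA1, and 1.81, 0.837 and 0.703 in CPA18. It was higher in CPA1 than in control in all 3 experiments, with a change of 0.57 ± 0.29 (adjusted p = 0.733), and at 0.08 ± 0.29 in CPA18 (adjusted p = 0.967). For Ulk1 it was 1.95, 1.73 and 0.917 in CPA1 and 0.672, 0.780 and 0.483 in CPA18, a change of -1.21 ± 0.57 (unadjusted p = 0.0377, adjusted p = 0.849). From control to CPA1, 7 of the 10 had a higher occupancy in each of the 3 experiments (18.4% of all genes did), and 6 did relative to the median gene (13.8%).

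**Figure D5:**
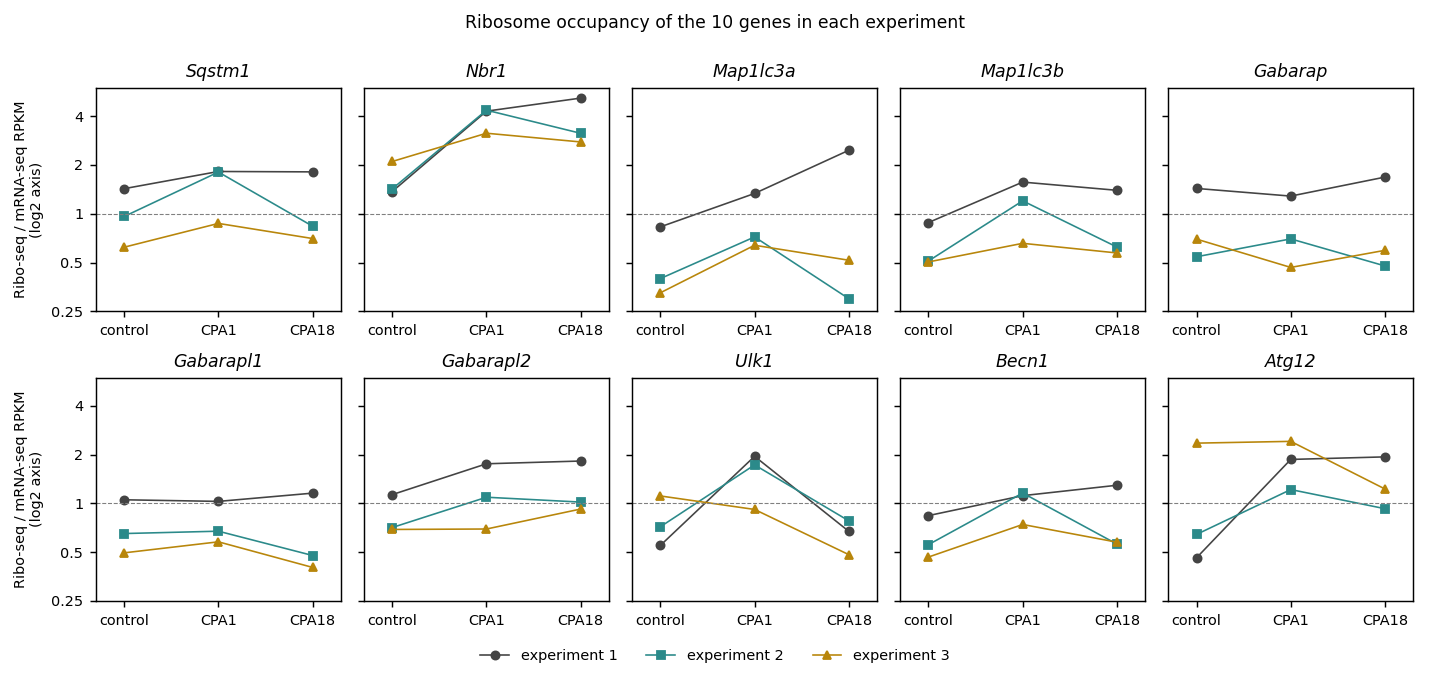
Ribosome occupancy (Ribo-seq over mRNA-seq RPKM, log2 axis) of the 10 genes by treatment, with 1 line per experiment and a dashed line at equal RPKM in both assays. Nbr1 is higher in both CPA treatments than in control in all 3 experiments, and for Sqstm1 and the 5 ATG8 genes experiment 1 is the highest in each treatment.

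The rest of the pathway was read from 6 lists with 73 other autophagy genes, of which 61 were tested. In CPA18 mRNA-seq 20 of the 61 were higher and 2 lower (edgeR), beside 25.9% and 7.69% of all genes, and in Ribo-seq 15 were higher and 1 lower, beside 24.6% and 6.35%. With TMM these counts were 10 and 12 in mRNA-seq and 7 and 4 in Ribo-seq, and without the block 1 and 0 in mRNA-seq and 12 and 1 in Ribo-seq. After 1 h there were 0 calls in mRNA-seq by edgeR, DESeq2 and limma. There, 0 of these genes had an unadjusted p under 0.05, against 6.24% of all genes. Ribo-seq gave 1 call after 1 h, Foxo3. By list, 4 of 9 initiation genes, 4 of 8 genes of phagophore growth, 3 of 6 conjugation genes, 3 of 18 other receptors, 4 of 13 fusion genes and 2 of 7 transcription factors and SQSTM1 partners were higher in CPA18 mRNA-seq. The median change of the other receptors was -0.12, below the 0.36 of all genes.

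Stbd1, a receptor for glycogen that binds GABARAPL1, rose the most among these. Its mRNA-seq RPKM was 6.77, 10.1 and 11.1 in control, 6.14, 9.99 and 16.2 in CPA1, and 57.6, 122 and 129 in CPA18, with no overlap of CPA18 with the others. The log2 change in CPA18 was 3.48 ± 0.32 (edgeR, adjusted p = 2.18e-16, and 0.00290 without the block) in mRNA-seq and 2.62 ± 0.33 in Ribo-seq (adjusted p = 2.80e-13), and it passed in all 12 alternatives in both assays. Epg5, a tether for fusion with the lysosome, rose by 1.64 ± 0.39 in mRNA-seq (adjusted p = 0.000611, and 0.0972 without the block) and by 1.64 ± 0.32 in Ribo-seq (adjusted p = 8.69e-06). The mRNA level of Epg5 was low, with a control RPKM of 0.962, 0.508 and 0.590. Plekhm1, a fusion adaptor that binds ATG8 proteins, rose in CPA18 by 1.70 ± 0.38 in Ribo-seq (edgeR, adjusted p = 8.95e-05). Vmp1, an ER membrane protein needed for phagophore growth, rose from CPA1 to CPA18 by 1.77 ± 0.30 in mRNA-seq (adjusted p = 9.83e-07, and 0.0761 without the block) and by 1.61 ± 0.29 in Ribo-seq (adjusted p = 7.78e-07). Atg101 of the ULK1 complex rose from CPA1 to CPA18 by 1.34 ± 0.31 in mRNA-seq (adjusted p = 0.000404, and 0.146 without the block).

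Nrbf2, a subunit of the lipid kinase complex, rose in CPA18 mRNA-seq by 1.87 ± 0.64 (edgeR, adjusted p = 0.0160), a call that held in 5 of 12 alternatives and was lost without experiment 2 or 3, without the block and with TMM, with an adjusted p of 0.0663 without the control libraries of experiment 2 and up to 0.269 in all. Nrbf2 had 122 reads over the 18 libraries, with a control mRNA-seq RPKM of 3.22, 1.02 and 0.232. The mitophagy receptor gene Bnip3 fell in CPA18 mRNA-seq by 0.83 ± 0.33 (edgeR, adjusted p = 0.0432). Foxo1, a transcription factor of autophagy and beta cell genes, fell there by 0.98 ± 0.34 (adjusted p = 0.0181). These calls were lost without any 1 experiment, without the control libraries of experiment 2 and without the block, with adjusted p up to 0.290 for Bnip3 and 0.282 for Foxo1. Without those control libraries it was 0.224 for Bnip3 and 0.111 for Foxo1. With TMM both changes were larger, at -1.26 for Bnip3 (adjusted p = 0.00132) and -1.39 for Foxo1 (adjusted p = 0.000692). In Ribo-seq, Rtn3, a receptor for autophagy of the ER, fell by 0.57 ± 0.18 in CPA18 (adjusted p = 0.00910, and 0.100 without experiment 3). Foxo3 footprints rose by 1.11 ± 0.36 in CPA1 (adjusted p = 0.0353), which held in 3 of 12 alternatives and was lost without any 1 experiment, with an adjusted p of 0.238 without the control libraries of experiment 2 and up to 0.365 in all.

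By the pattern over the 9 mRNA-seq libraries, the genes most like Sqstm1 among 5170 with a mean RPKM of at least 5 were Ric8a, Tbrg1, Tnfrsf12a, Tut1 and Mrm1, with Pearson's r of log2(RPKM + 0.5) from 0.992 to 0.995. Tnfrsf12a, a receptor of the TNF family, went from a mean RPKM of 41.7 in control to 240.4 in CPA18, and Ric8a, a chaperone of G proteins, from 16.3 to 54.9. Of the members, Becn1 (r of 0.90) and Gabarapl1 (0.90) were closest to Sqstm1, at ranks 855 and 929, and Nbr1 was farthest at 0.07 among the 8 members compared, which leave out Ulk1 with a mean RPKM under 5. The libraries share treatments and experiments, so these values describe likeness over 9 points and carry no test.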

How the data were processed

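MIN6 cells were treated in 3 independent experiments and each treatment was sequenced as mRNA-seq and Ribo-seq. The authors filtered reads by quality, kept those of 15 to 40 nt, aligned them with Bowtie2 to the GRCm38.p6 RNA reference, and deposited read counts per transcript, RPM and RPKM. RPM was not used. The deposited RPKM values are counts divided by transcript length and library total, and recomputing them from the counts gave values within 0.00111 on the log2 scale. Of 30741 transcript rows, 30232 were matched to a gene with the accession version, 478 without it and 31 not at all. Counts were summed per gene over its mRNA transcripts, and a gene was kept if each of the 18 libraries held a read of it.

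Each assay was fitted with edgeR 4.0.16 (quasi-likelihood test, R 4.3.3) on these counts, with the library total as size, the experiment as a block and Benjamini-Hochberg adjustment over 7794 genes. Genes with an adjusted p under 0.05 were called. Ribosome occupancy was the interaction of assay and treatment over 18 libraries, with a block for each experiment within an assay. The replicate numbers in the labels stand for experiments. Deviations of same-numbered libraries from their treatment means had a mean correlation of 0.567 (0.113 to 0.757 over 9 pairs) in mRNA-seq and 0.139 (0.083 to 0.187) in Ribo-seq. For differently numbered libraries it was -0.275 (-0.738 to 0.494 over 18 pairs) and -0.0697 (-0.143 to 0.0231). The mRNA-seq ranges thus overlapped. There, the CPA1 library of experiment 2 correlated weakly with control (0.130) and CPA18 (0.113) of its own experiment. These 2 correlated more with CPA1 of experiment 3 (0.389 and 0.494). Alternatives used TMM, DESeq2 1.42.0, limma 3.58.1 on log2(RPKM + 0.5) and log2(RPKM + 1), no block, no filter, only transcripts detected in all 18 libraries, library totals without Ins1, Ins2 and Lars2, and leaving out an experiment or the control libraries of experiment 2. The descriptions of these name the other assay, and they were placed by titles and column headers. Figures were drawn in Python 3.11.15 with matplotlib 3.10.9, and tables were summarised with pandas 2.3.3, scipy 1.17.1 and numpy 2.4.6.

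The 10 genes, the other lists and the tests were chosen with earlier results of these data known. All 10 members were described, and of the other autophagy genes at most the 3 largest increases and 3 largest decreases called in each comparison were named, along with the 5 genes whose mRNA-seq pattern was most like that of Sqstm1. Sequences came from RefSeq for GRCm38.p6.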

Additional observations from a re-analysis of the deposited data

How the results depend on the processing

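The number of the 10 genes called depended on the setting in 4 comparisons. For CPA18 against control in mRNA-seq, 4 were called, against 0 without the experiment as a block, 2 with DESeq2 and from 1 to 3 when an experiment or the control libraries of experiment 2 were left out. For CPA18 against CPA1 in mRNA-seq, 6 were called, against 0 without the block, 1 with TMM, 3 with Ins1, Ins2 and Lars2 out of the library total, 1 with DESeq2 and from 1 to 6 in the leave-one-out fits. In Ribo-seq, CPA18 against control gave 7, against 2 with TMM, 1 with DESeq2 and from 3 to 7 in the leave-one-out fits, and CPA18 against CPA1 gave 2, against 1 without the block, with TMM, without those 3 genes, with DESeq2, without the filter and in each leave-one-out fit. The count was 1 in CPA1 Ribo-seq and 0 in CPA1 mRNA-seq and in occupancy under all 12 alternatives. Over all 7794 genes the calls also changed. In mRNA-seq, CPA18 against control gave 2617, against 154 without the block, 1898 with DESeq2 and 990 without experiment 3. CPA18 against CPA1 gave 2922 there, against 138 without the block, 2278 with TMM and 1807 with DESeq2. In Ribo-seq, CPA18 against control gave 2409, against 1836 with TMM and 1145 with DESeq2. CPA18 against CPA1 gave 1753 there, against 1485 with TMM and 1006 with DESeq2. Of the 20 calls of the 10 genes, 3 passed in every alternative, all Ribo-seq changes of Sqstm1. With TMM 7 passed, without the block 9, with DESeq2 6 and without any 1 experiment 6. Of 1080 values under alternatives 64 changed sign, and 0 of these were called in either setting. The cause of each lost call was not tested. Depth limited Ulk1 and Atg12 most, with as few as 2 and 4 reads in a Ribo-seq library. The replicates are separate experiments on 1 cell line, so p-values measure the spread between these 3.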
